A study of Mus musculus with 2 samples.

Results

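The genes described here encode the surface antigens by which mouse haematopoietic stem cells are sorted. They were chosen by symbol: Kit, Ly6a, Slamf1, Cd48, Cd34, Procr, Esam, Cd27, Slamf2 and Ptprc. Of these 10 symbols 9 were found among the 31053 genes of the deposited tables, because Slamf2 is an older name of Cd48 and had no entry of its own. Single-cell RNA-seq had been run on bone marrow cells sorted as LSK CD150+, that is, negative for lineage markers and positive for Sca-1, Kit and CD150. There was 1 library labelled RUNX1 KO and 1 labelled RUNX1 WT, both from a mouse model with a floxed Runx1 allele (Runx1 F/F) and Mx1-Cre, a recombinase gene driven by an interferon-inducible promoter that is active in many cell types. Whether the animals of the library labelled WT carried Mx1-Cre, how deletion was induced, and the age and number of the animals are not given in the sources used here. Runx1 encodes a transcription factor of blood cell development.

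Stem cells make up a small fraction of the marrow and are isolated by combinations of antigens. Kit and Sca-1 mark primitive cells, and within them the SLAM receptors divide the cells further, stem cells being CD150-positive and CD48-negative in the classical scheme. CD34 is low on long-term stem cells of adult mice and rises on progenitors, whereas EPCR and ESAM enrich for stem cells.

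The library labelled KO held 10769 kept cells with 119272042 UMIs (unique molecular identifiers, each counting 1 captured RNA molecule) and a median of 9310 UMIs per cell. The WT library held 9472 kept cells with 112655858 UMIs and a median of 9884. With 1 library per genotype there is no replicate check of any difference and no test was made. The intervals given are exact, at 95%, and cover counting error alone. Runx1 itself stood at 196 CPM (UMIs summed over cells and scaled to a common library total) in the library labelled KO and 104 CPM in the WT library, a ratio of 1.89 (1.85 to 1.93). That is the opposite of what the labels lead one to look for, and since the 3′ tags need not lie in the deleted part they check nothing about the genotype. Every direction given here is that of the library with the KO label. The libraries also differed in sex: 82.9% of cells were female and 9.04% male in the library labelled KO, against 0.095% female and 70.6% male in the WT library. RNA of both sexes was found in 237 cells (2.20%) of the library labelled KO and 4 cells (0.042%) of the WT library. The libraries shared 39 barcodes, of which 35 and 33 were kept cells in the library labelled KO and the WT library.

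Cd48, Cd34 and Slamf1 were the members that stood at least 1.5-fold higher in the library labelled KO, and no member stood 1.5-fold lower. Ly6a and Esam were higher by less, Ptprc and Kit were within 10% of each other in the libraries, and Cd27 and Procr were lower. In all, 6 of 9 members were higher and 3 lower. All 9 stood above 5 CPM in both libraries. Of 9572 genes that reached 5 CPM in at least 1 library, 2.96% passed 1.5-fold upwards and 3.85% downwards. The members' median log2 ratio was 0.47, beside -0.083 for those 9572 genes. At a floor of 20 CPM the same shares were 2.25% and 2.03% of 5904 genes, a floor that Procr did not reach and that Slamf1 reached through the library labelled KO alone.

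**Figure D1:**
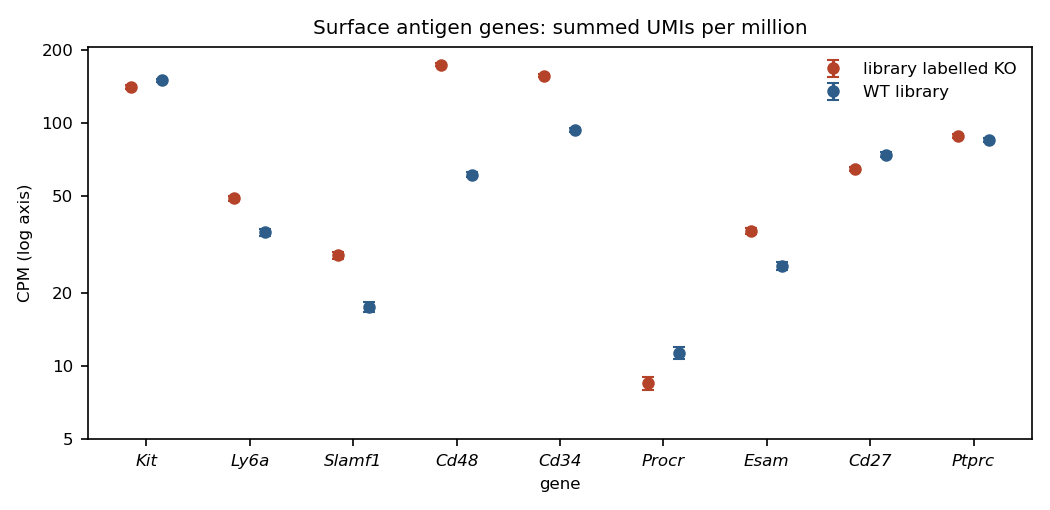
Level (CPM of summed UMIs, log axis) of the 9 genes in the library labelled KO (red) and the WT library (blue), with exact 95% counting intervals, mostly smaller than the points. Cd48 shows the widest gap, 174 against 61.3 CPM. Levels of different genes are not comparable, since 3′ tags are not scaled by length.

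Cd48 encodes a GPI-anchored SLAM receptor that binds CD244 and CD2 and is carried by many blood cells but not by the most primitive stem cells. It stood at 174 CPM in the library labelled KO and 61.3 CPM in the WT library, a ratio of 2.83 (2.76 to 2.91), and 99.6% of genes at 20 CPM or more had a lower ratio. With every cell thinned at random to 3000 UMIs, a Cd48 UMI was found in 4381 of 10678 cells (41.0%) in the library labelled KO and 1362 of 9317 cells (14.6%) in the WT library. Without thinning the shares were 76.9% and 35.7%. The cells with 2 or more Cd48 UMIs after thinning made up 11.7% of the library labelled KO and 2.88% of the WT library. Haemoglobin-rich erythroid-like cells, which should hold little Cd48, had a UMI in 1 of 91 cells (1.10%) in the library labelled KO and in 0 of 40 in the WT library, which allows a share of up to 7.5%. Their median depths were 10305 and 13942 UMIs before thinning.

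Cd34 encodes a sialomucin of stem and progenitor cells and of endothelium. Its level was 157 CPM in the library labelled KO and 93.2 CPM in the WT library, a ratio of 1.68 (1.64 to 1.72), and it was detected in 33.5% and 22.02% of thinned cells. Slamf1 encodes CD150, the SLAM receptor on which both sorts were gated as protein. The gene stood at 28.5 CPM in the library labelled KO and 17.5 CPM in the WT library, a ratio of 1.63 (1.55 to 1.73), with a UMI in 8.50% and 5.68% of thinned cells. Even without thinning, a Slamf1 UMI was seen in 23.7% of cells of the library labelled KO and 17.4% of WT cells, so a missing UMI says little about the protein.

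Cd48 and Slamf1 are neighbours in the SLAM gene cluster. On GRCm38 (GENCODE M21) Cd48 lies on chromosome 1 from 171682009 to 171705258 and Slamf1 from 171767127 to 171801184, both on the plus strand, 61868 bases apart with 5 annotated genes between them. Cd34 lies on the same chromosome from 194938819 to 194961279, also on the plus strand, and its annotation overlaps an antisense gene, Gm16897, which the files count separately. No source used here says whether the counting used strand. The promoters of these 3 members, those at least 1.5-fold higher, are shown because Runx1 is the gene the labels name as targeted. They are RefSeq sequences of GRCm38.p6, from 250 bases before the transcription start to 50 after it, plus strand, at chr1:171681742-171682041 for Cd48, chr1:171766882-171767181 for Slamf1 and chr1:194938571-194938870 for Cd34. Capitals mark the RUNX core letters TGTGGT or, on the other strand, ACCACA.
Cd48: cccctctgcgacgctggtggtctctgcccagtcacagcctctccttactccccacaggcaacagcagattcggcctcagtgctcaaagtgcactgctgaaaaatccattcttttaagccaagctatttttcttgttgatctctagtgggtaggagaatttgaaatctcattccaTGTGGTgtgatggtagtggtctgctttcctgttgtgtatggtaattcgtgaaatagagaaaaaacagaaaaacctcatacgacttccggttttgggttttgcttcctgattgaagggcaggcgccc
Slamf1: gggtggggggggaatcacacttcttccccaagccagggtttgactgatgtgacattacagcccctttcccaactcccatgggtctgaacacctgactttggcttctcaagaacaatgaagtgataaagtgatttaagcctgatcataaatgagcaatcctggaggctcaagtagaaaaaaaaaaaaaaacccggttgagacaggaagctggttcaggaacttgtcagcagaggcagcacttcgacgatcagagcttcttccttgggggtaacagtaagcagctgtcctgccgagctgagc
Cd34: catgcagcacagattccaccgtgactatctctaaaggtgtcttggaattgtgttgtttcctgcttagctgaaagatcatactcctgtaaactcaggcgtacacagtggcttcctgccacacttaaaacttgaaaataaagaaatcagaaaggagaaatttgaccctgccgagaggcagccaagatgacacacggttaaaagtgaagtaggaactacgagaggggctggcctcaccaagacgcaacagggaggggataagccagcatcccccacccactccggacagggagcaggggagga
The Cd48 promoter held the RUNX letters once, 76 bases before the start on the plus strand, and those of Slamf1 and Cd34 did not hold them in this window. Of the 7 members matched to a promoter, with 9 promoters among them, Cd48 alone held these letters, beside 18.9% of 27025 genes. The GATA letters AGATAA were found for Ptprc alone (12.7% of genes), and the ETS letters GGAAGT for Ptprc and Cd48 (26.5% of genes), both strands searched. The motifs do not overlap in letters, and a match describes the sequence, not a bound site.

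Kit and Ly6a encode the other antigens of the sort. Kit, the receptor tyrosine kinase for stem cell factor (chromosome 5, 75574916 to 75656722, plus strand), stood at 141 CPM in the library labelled KO and 150 CPM in the WT library, a ratio of 0.937 (0.917 to 0.957). With the scaling of edgeR's TMM method this ratio was 1.002, and under a stricter cell filter (at least 1000 genes and at most 5% mitochondrial UMIs) it was 1.01. A Kit UMI was found in 36.2% of thinned cells of the library labelled KO and 37.8% of thinned WT cells. Ly6a encodes Sca-1, a GPI-anchored protein that interferon induces (chromosome 15, 74994877 to 74998031, minus strand). It stood at 49.0 CPM in the library labelled KO and 35.5 CPM in the WT library, a ratio of 1.38 (1.33 to 1.44), with a UMI in 13.3% and 10.8% of thinned cells. Under the stricter filter its CPM ratio was 2.11 and the ratio of its shares 2.27, against 1.24 in all kept cells. Few cells held a UMI of all 3 sorting genes, Kit, Ly6a and Slamf1: 3.56% in the library labelled KO and 3.22% in the WT library before thinning, 0.384% and 0.333% after it. Of the lineage antigens that the sort removes, 9 of the 10 found were under 5 CPM in both libraries.

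Procr and Esam encode antigens used to enrich for stem cells. Procr, the gene of the endothelial protein C receptor EPCR (chromosome 2, 155751117 to 155755471, plus strand), had the lowest ratio of the members. Its level was 8.48 CPM in the library labelled KO and 11.3 CPM in the WT library, a ratio of 0.749 (0.689 to 0.814), and it was detected in 3.17% and 4.29% of thinned cells. The direction turned under the stricter cell filter, where the CPM ratio was 1.51. That filter left 60.3% of the cells with Procr in the library labelled KO and 22.2% of those in the WT library, against 80.8% and 52.6% of all cells. Esam encodes an adhesion molecule of stem cells, megakaryocytes and endothelium (chromosome 9, 37528078 to 37538319, plus strand). Esam stood at 35.9 CPM in the library labelled KO and 25.8 CPM in the WT library, a ratio of 1.39 (1.33 to 1.46), and was detected in 10.2% and 8.04% of thinned cells.

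Cd27 encodes a receptor of the TNF receptor family that binds CD70, and Ptprc encodes CD45, a tyrosine phosphatase of most nucleated blood cells. Cd27 (chromosome 6, 125232622 to 125237010, minus strand) stood at 64.7 CPM in the library labelled KO and 74.2 CPM in the WT library, a ratio of 0.872 (0.845 to 0.899). It was found in 19.1% and 21.3% of thinned cells. Its annotation overlaps Vamp1 on the other strand, which the files count separately. Ptprc (chromosome 1, 138062861 to 138175708, minus strand) differed least of the higher members, at 88.3 CPM in the library labelled KO and 85.4 CPM in the WT library, a ratio of 1.03 (1.01 to 1.06). The thinned shares were 25.6% and 24.0%.  On average 1.90 of the 9 genes had a UMI per thinned cell in the library labelled KO and 1.48 in the WT library, and 15.6% and 22.3% of cells had none.

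Since the libraries differed in sex, the ratios were also taken over male cells, 973 in the library labelled KO and 6690 in the WT library. There Cd48 stood at 172 CPM in the library labelled KO and 59.9 CPM in the WT library, a ratio of 2.88 (2.73 to 3.04). Cd34 had a male ratio of 1.64 and Slamf1 of 1.58. All 9 members kept their direction among male cells, though the intervals of Kit, Procr, Cd27 and Ptprc then included 1. Within the library labelled KO female and male cells were close, with female over male ratios from 0.984 for Procr to 1.08 for Slamf1. Only Cd34 had an interval there that left out 1, at 1.06 (1.01 to 1.12).

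**Figure D2:**
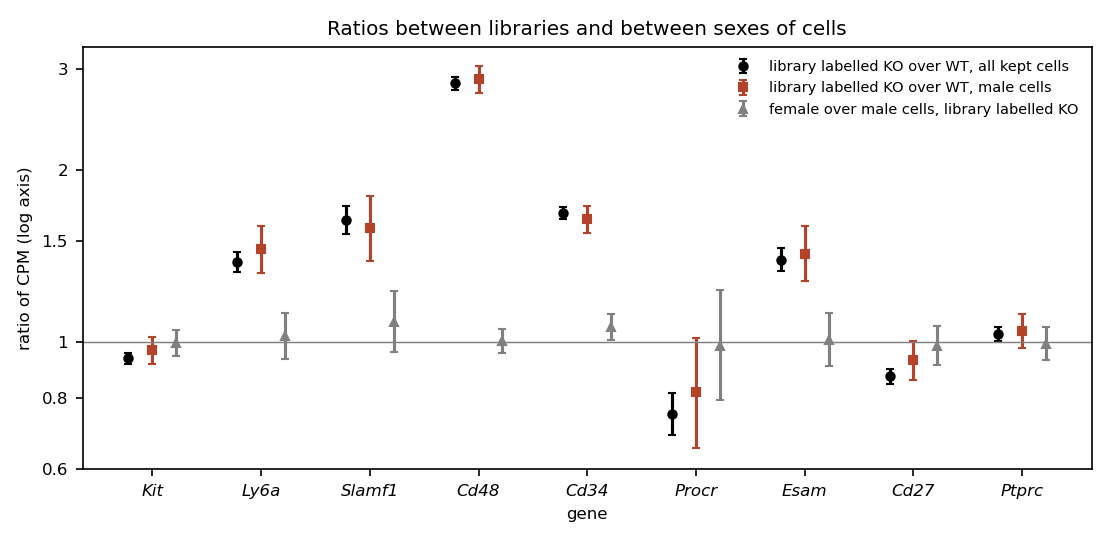
Ratio of CPM (log axis) for each gene, library labelled KO over WT in all kept cells (black) and in male cells (red), and female over male cells within the library labelled KO (grey), with exact 95% counting intervals. The ratios of male cells lie near those of all cells, 2.88 beside 2.83 for Cd48, while the grey points lie near 1.

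The cells fell into 18 clusters, made without these 9 genes and without genes at least 1.5-fold apart between the libraries, and 12 of them held at least 50 cells of each library. By markers, cluster 0 was stem-like, with Hlf among its leading genes, and held 1736 cells in the library labelled KO and 1292 in the WT library. Cluster 1 was megakaryocyte-like, cluster 8 granulocyte-monocyte progenitor-like (GMP-like), cluster 9 erythroid-like and cluster 10 monocyte- and dendritic-like. Clusters 3 and 11 were led by genes of mitosis, and clusters 4 and 6 by genes of S phase. Cluster 2, led by Csrp3 and Trib2, cluster 5, led by Myl10 and Ung, and cluster 7, led by Hist1h2bc, were left unnamed. These names were rebuilt from markers and are not the authors' own. Rankings of clusters cover these 12 clusters. Among the 6 smaller ones, Ly6a stood at 428 CPM in the library labelled KO (30 cells) and 563 CPM in the WT library (71 cells) in cluster 13, led by immunoglobulin genes. Slamf1 stood at 236 CPM in cluster 17, led by Ppbp, which held 17 cells of the library labelled KO and 0 of the WT library. Cluster 12, the haemoglobin-rich erythroid-like one, had lower Kit, Cd27 and Ptprc levels than any of the 12.

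Within the stem-like cluster the gap in Cd48 was widest. Cd48 stood at 233 CPM there in the library labelled KO (2750 UMIs) and 12.2 CPM in the WT library (100 UMIs), a ratio of 19.1 (15.7 to 23.6). After thinning, a Cd48 UMI was found in 47.5% of its cells in the library labelled KO and 3.50% in the WT library. The haemoglobin-rich erythroid-like cells, which should hold little Cd48, stood at 17.4 CPM in the library labelled KO (22 UMIs) and 4.67 CPM in the WT library (3 UMIs). The size of the stem-like ratio thus depends on a low WT level. In the megakaryocyte-like cluster the levels were 161 and 27.1 CPM, a ratio of 5.93, and in cluster 5 they were 262 and 52.5 CPM, a ratio of 4.99. By contrast, GMP-like cells stood at 181 CPM in the library labelled KO and 161 CPM in the WT library, a ratio of 1.12. Monocyte- and dendritic-like cells, the cluster with the highest level in both libraries, stood at 351 and 393 CPM, a ratio of 0.893 (0.825 to 0.967). Cd48 was thus higher in the library labelled KO in 11 of 12 clusters.

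The stem-like ratio of Cd48 was 17.8 among male cells (137 cells in the library labelled KO and 785 in the WT library). It was 18.3 among cells with an Hlf UMI, a stem cell transcription factor gene, and 29.5 among cells with a Procr UMI, where Cd48 stood at 189 CPM in the library labelled KO and 6.42 CPM in the WT library. Under the stricter filter it was 9.53 (6.01 to 16.1), on 902 cells of the library labelled KO and 101 WT cells, the latter with 18 Cd48 UMIs. That filter left 52.0% of the stem-like cells in the library labelled KO and 7.82% in the WT library. Before it, their median mitochondrial shares were 4.97% and 6.12%. The stem-like cells of the libraries were not alike in their markers. Summed over the list, the 9 stem markers stood at 630 CPM in the library labelled KO and 1062 CPM in the WT library, and 9 of 9 were lower, from a ratio of 0.839 for Hlf to 0.204 for Ctnnal1. The megakaryocyte list stood at 519 CPM in the library labelled KO and 353 CPM in the WT library, with 6 of 11 markers higher, 4 lower and Gp6 at 0 in both, from a ratio of 4.97 for Gp5 to 0.286 for Cavin2 among those with UMIs in both. The GMP list, 7 of 8 higher, stood at 860 and 683 CPM. The lymphoid-primed list stood at 59.7 and 32.5 CPM, with 4 of 6 markers higher and 2 lower. Of these, Flt3 stood at 36.7 CPM in the library labelled KO and 13.4 CPM in the WT library, and Notch1 at 7.29 and 14.9 CPM. The basophil and mast cell list stood at 277 CPM in the library labelled KO and 18.5 CPM in the WT library, with 3 of 8 markers higher and 4 lower. The higher ones were Cpa3, at 266 and 9.03 CPM and the bulk of the sum in the library labelled KO, Ms4a2, at 7.29 and 0.732 CPM, and Cd200r3, at 2.37 and 0.244 CPM. Mcpt8 stood at 0.509 and 3.54 CPM and Cma1 at 0 in both. The part of these differences in the ratio of Cd48 was not tested.

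**Figure D3:**
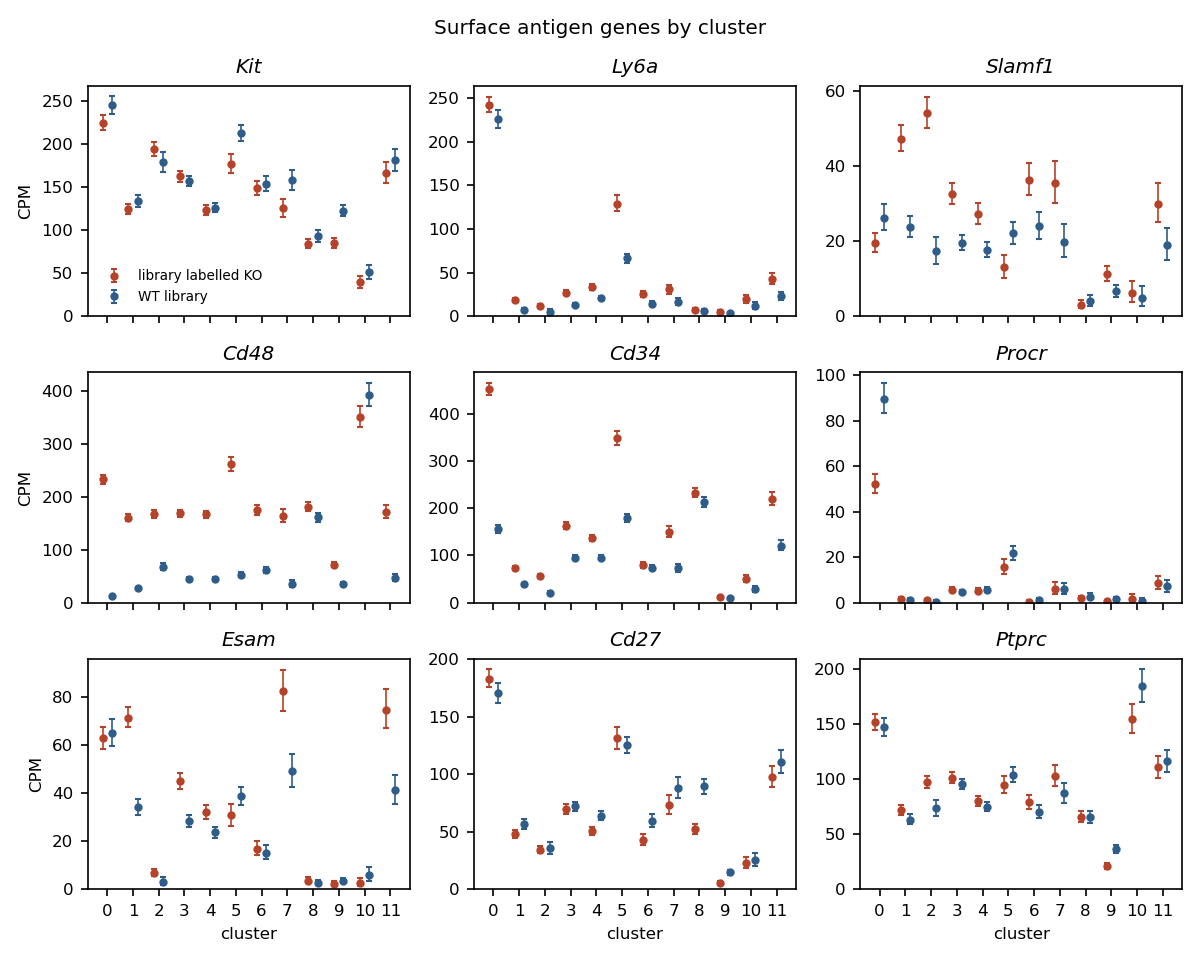
CPM of the 9 genes in clusters 0 to 11, library labelled KO (red) left of the WT library (blue), with exact 95% counting intervals. In cluster 0, the stem-like one, Cd48 stands at 233 against 12.2 CPM and Cd34 at 452 against 155 CPM, while Procr stands at 52.2 against 89.7 CPM.

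Cd34 was highest in the stem-like cluster of the library labelled KO, at 452 CPM against 155 CPM in the WT library, a ratio of 2.91 (2.74 to 3.098). A UMI was detected in 71.4% of its thinned cells in the library labelled KO and 30.02% in the WT library. In the WT library the highest Cd34 level was instead that of GMP-like cells, which stood at 233 CPM in the library labelled KO and 212 CPM in the WT library. Cd34 was higher in the library labelled KO in 12 of 12 clusters, with intervals above 1 in 10. Ly6a was likewise higher in 12 of 12. In stem-like cells, where it was highest of the 12 in both libraries, Ly6a stood at 242 and 226 CPM, a ratio of 1.07. Its ratio was 2.53 in megakaryocyte-like cells, on levels of 19.0 CPM in the library labelled KO and 7.52 CPM in the WT library.

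Procr was concentrated in the stem-like cluster, which held 69.8% of its positive thinned cells in both libraries. Its level there was 52.2 CPM in the library labelled KO and 89.7 CPM in the WT library, a ratio of 0.583 (0.523 to 0.649), and its thinned shares were 13.7% and 22.2%. The stem markers, as given above, were lower in the same cells. In GMP-like cells, which should lack Procr, a UMI was found in 0.167% of thinned cells in the library labelled KO and 0.879% in the WT library, at median depths of 15890 and 16408 UMIs before thinning. Slamf1 was lower in stem-like cells, at 19.4 CPM in the library labelled KO and 26.2 CPM in the WT library, a ratio of 0.740 (0.612 to 0.896). Most other clusters had the opposite direction. In cluster 2 Slamf1 stood at 54.1 CPM in the library labelled KO and 17.3 CPM in the WT library, a ratio of 3.12 (2.51 to 3.92), and in megakaryocyte-like cells at 47.2 and 23.7 CPM, a ratio of 1.99. Cluster 2 held 15.04% of cells in the library labelled KO and 6.63% in the WT library. Of the 12 clusters, the one with the highest Slamf1 level was cluster 2 in the library labelled KO and the stem-like cluster in the WT library.

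Esam did not differ beyond its counting error in stem-like cells, at 63.1 CPM in the library labelled KO and 65.3 CPM in the WT library, with an interval of the ratio from 0.864 to 1.08. In megakaryocyte-like cells it stood at 71.5 and 34.3 CPM, a ratio of 2.09 (1.86 to 2.34). Of the 12 clusters, Cd27 was lowest in the erythroid-like cluster 9, at 5.47 CPM in the library labelled KO and 14.5 CPM in the WT library, and was also lower in GMP-like cells, at 52.2 and 89.4 CPM. In stem-like cells, its highest cluster in both libraries, Cd27 stood at 183 and 170 CPM. Again of the 12, Kit was highest in stem-like cells, at 225 CPM in the library labelled KO and 245 CPM in the WT library, and lowest in monocyte- and dendritic-like cells, at 39.5 and 50.9 CPM. Ptprc was the highest of the 12 in monocyte- and dendritic-like cells, at 155 CPM in the library labelled KO and 184 CPM in the WT library, and lowest in cluster 9, at 20.6 and 36.3 CPM.

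Pairs of antigen genes were compared by the number of thinned cells with UMIs of both, over the number that independent detection would give. Of the 36 pairs 29 were above 1 in the library labelled KO and 27 in the WT library, with medians of 1.16 and 1.12. The highest value was that of Ly6a with Procr, at 3.62 in the library labelled KO (163 cells with both, 45.0 expected) and 3.95 in the WT library (170 cells, 43.0 expected). Procr was found in 11.5% of the cells with Ly6a and 1.89% of those without it in the library labelled KO, and in 17.0% and 2.77% in the WT library. Procr and Esam were also found together, at 2.15 in the library labelled KO and 2.21 in the WT library, as were Procr and Cd27, at 2.17 and 1.74. Cells of 1 library share their source and their depth, so these values describe each library by itself.

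Cd48 gave the 3 pairs that differed most between the libraries, those with Ly6a, Procr and Esam. Cd48 and Procr were found together in 144 cells of the library labelled KO, where 139 were expected (1.04), and in 21 WT cells, where 58.5 were expected (0.359). With Ly6a the values were 1.08 in the library labelled KO (631 cells) and 0.341 in the WT library (50 cells), the lowest of all pairs there. With Esam they were 0.988 and 0.438. With Slamf1, the pair of the SLAM scheme, they were 0.958 in the library labelled KO (357 cells, 373 expected) and 0.634 in the WT library (49 cells, 77.3 expected). Set beside each gene with a UMI in at least 2% of the thinned cells of its library, Procr lay above 77.9% of 8671 genes in its co-detection with Cd48 in the library labelled KO, and above 0.17% of 8845 genes in the WT library. Cd48 and Cd34 were above 1 in both libraries, at 1.17 and 1.23.

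**Figure D4:**
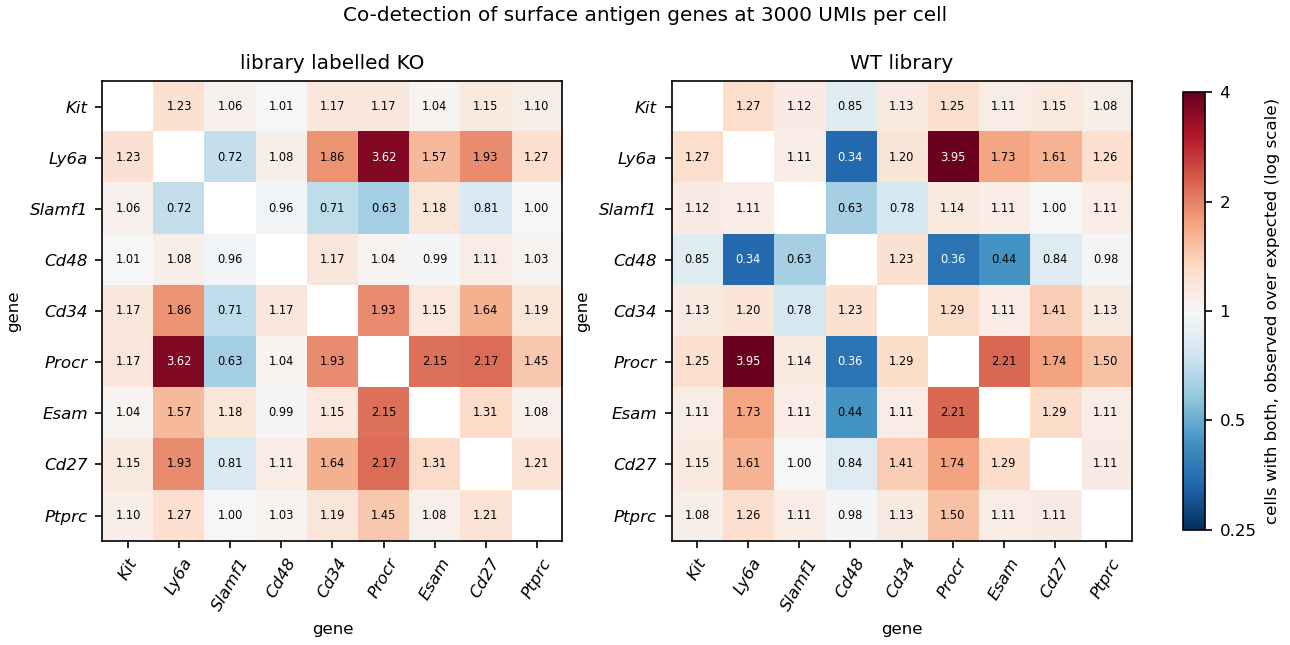
Cells with UMIs of both genes over the number expected from independent detection, at 3000 UMIs per cell, for each pair in the library labelled KO (left) and the WT library (right), on a log colour scale. The Cd48 row is near 1 in the library labelled KO and as low as 0.34 with Ly6a and 0.36 with Procr in the WT library, while Ly6a with Procr is the darkest red in both.

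Part of this pairing followed the clusters. With the expected number summed within clusters, the range over pairs was 0.855 to 1.47 in the library labelled KO and 0.629 to 1.22 in the WT library. Ly6a with Procr was then at 1.34 in the library labelled KO and 1.21 in the WT library, and the highest values were those of Procr with Esam, at 1.47, and of Cd48 with Cd34, at 1.22. Cd48 with Procr was then at 0.915 in the library labelled KO and 0.809 in the WT library (21 cells, 26.0 expected), and Cd48 with Ly6a at 0.974 and 0.629. Under the stricter filter Cd48 with Procr was at 0.927 in the WT library. Seen from the Procr cells of the stem-like cluster, a Cd48 UMI was found in 97 of 236 (41.1%) in the library labelled KO and 2 of 279 (0.717%) in the WT library. Among its Slamf1 cells the shares were 31.6% and 1.0%, and among its Ly6a cells 42.9% and 1.58%. Outside that cluster, 46.1% of Procr cells in the library labelled KO and 15.7% in the WT library held a Cd48 UMI. Among the cells there without Procr these shares were 39.7% and 16.4%. Before thinning, over all clusters, 77.7% of Procr cells in the library labelled KO and 19.6% in the WT library held a Cd48 UMI. Slamf1 and Procr were found together less often than expected in the library labelled KO, at 0.626 (18 cells, 28.7 expected), and more often in the WT library, at 1.14 (26 cells, 22.7 expected). Within clusters both were below 1, at 0.887 and 0.897.

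**Figure D5:**
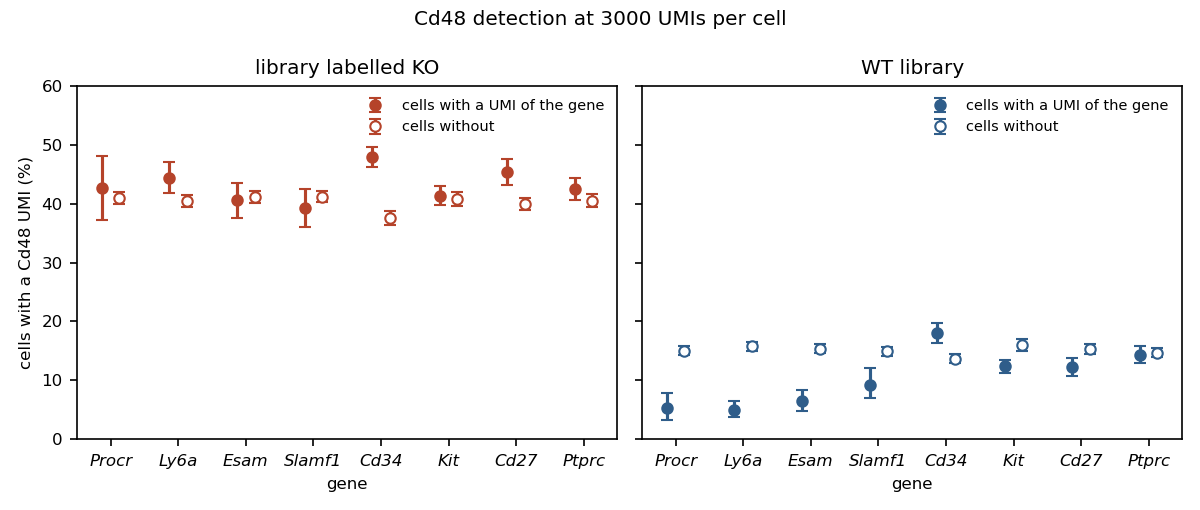
Share of thinned cells with a Cd48 UMI among cells with (filled) and without (open) a UMI of each other gene, in the library labelled KO (left, red) and the WT library (right, blue), with exact 95% binomial intervals. Among Procr cells the share is 42.6% in the library labelled KO and 5.25% in the WT library, and among cells without Procr it is 41.0% and 15.04%.

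Cells were also counted by the combinations that stem cell schemes use, here on RNA, where a missing UMI is not an absent protein. Cells with Slamf1 and without Cd48 made up 5.16% of thinned cells in the library labelled KO and 5.15% in the WT library, but 5.24% and 11.5% before thinning. Cells with both made up 3.34% and 0.526% of thinned cells. Cells with Procr and without Cd48 made up 1.82% of thinned cells in the library labelled KO and 4.07% in the WT library, and those with both 1.35% and 0.225%. Cells with Cd34 and Cd48 made up 16.1% in the library labelled KO and 3.97% in the WT library.

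The cells that held each antigen gene also differed in their other markers. In the library labelled KO, cells with a Cd48 UMI had a summed stem marker level of 286 CPM and cells without one 313 CPM, a ratio of 0.915. In the WT library these levels were 185 and 418 CPM, a ratio of 0.441. The GMP markers stood at a ratio of 0.873 in the Cd48 cells of the library labelled KO and 2.71 in those of the WT library. The S phase markers also changed side, at 0.959 in the library labelled KO and 1.075 in the WT library. So did the G2 and M phase markers, at 0.927 and 1.16. The endothelial markers, at 1.03 and 0.548, and the stromal ones, at 0.810 and 1.07, changed side with intervals that included 1 in the library labelled KO. The lists named next kept their direction. The monocyte and dendritic markers were higher in Cd48 cells of both, at 1.74 in the library labelled KO and 4.596 in the WT library. So were the basophil and mast cell markers, at 1.42 and 3.004, and the lymphoid-primed markers, at 1.46 and 2.45. The neutrophil markers were lower in both, at 0.255 and 0.377. By cluster, the largest share of Cd48 cells in the library labelled KO was that of stem-like cells, at 18.6%, beside 16.1% of all thinned cells. In the WT library it was that of monocyte- and dendritic-like cells, at 14.7%, beside 3.34% of all thinned cells. The latter cluster held 4.84% of Cd48 cells and 3.21% of all thinned cells in the library labelled KO. Procr cells had higher stem markers in both libraries, at ratios of 2.73 in the library labelled KO and 3.097 in the WT library, and low markers of mitosis, at 0.439 and 0.303. Esam cells had higher megakaryocyte markers, at 2.03 and 1.202, as had Slamf1 cells, at 1.35 and 1.07.

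For each member the genes most like it over the 12 clusters were named by the lower Pearson correlation of both libraries, on log2(CPM + 1). Procr was most like Stxbp4 (r = 0.972 in the library labelled KO and 0.968 in the WT library), Nceh1 and Hlf, and Ly6a most like Myl10 (0.948 and 0.966), Nceh1 and Stxbp4. Slamf1 was most like Rab37 (0.933 and 0.953), Gata2, a transcription factor gene of stem and megakaryocytic cells (0.928 and 0.952), and Prkcq. Esam was most like Mmrn1 (0.958 and 0.980), with Tie1 also among its 3 most similar genes. Cd34 was most like Pigx (0.967 and 0.926), Adgrl4 and Cd27, and Cd27 most like Hoxa7 (0.971 and 0.969), Sirt3 and Afap1l1. Kit was most like Map7 (0.945 and 0.978), Def8 and Cdk17, and Ptprc most like Trim30a (0.981 and 0.968), Mndal and Cyld. Cd48 had the loosest match, Tmsb10 (0.862 and 0.878), followed by Tnfaip8l2 and Selplg. The clusters share their library and are not independent, so these correlations are descriptions over 12 points.

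Relatives and partners of the antigens gave the setting. Of the SLAM receptors and their adaptors 5 of 12 found reached 5 CPM in at least 1 library. Of these, 4 were higher and 1 lower in the library labelled KO, with a median log2 ratio of 0.71. The members Slamf1 and Cd48 and also Ly9, 3 in all, were at least 1.5-fold higher, beside 2.96% of all genes at that floor. Ly9 reached the floor through the library labelled KO alone, at 8.12 CPM there and 4.44 CPM in the WT library. Since the list holds members, its median is not separate from theirs. The 3 that are not members had ratios of 1.34 (Cd84), 1.83 (Ly9) and 0.710 (Fyn). The SLAM receptor gene Cd84 stood at 76.5 CPM in the library labelled KO and 57.3 CPM in the WT library, and Fyn, a kinase that acts below SLAM receptors, at 26.1 and 36.7 CPM. In the Ly6 family 4 of 11 reached 5 CPM in at least 1 library, 3 higher and 1 lower, none by 1.5-fold. Their median was 0.26, with the member Ly6a among the 4 and the other 3 not members. Ly6c2, a marker of monocytes and their progenitors, stood at 56.9 CPM in the library labelled KO and 82.9 CPM in the WT library, and Ly6e at 446 and 431 CPM. Cd59a, which encodes an inhibitor of complement, stood at 24.4 and 16.3 CPM. Overlapping families of near-identical genes such as Ly6 can share reads, which makes their values less certain, Ly6a included.

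Ligands and signalling partners of the antigens were mixed, 8 higher and 11 lower of 19 at 5 CPM, with a median of -0.049. Of the 19, 3 were at least 1.5-fold higher, beside 2.96% of all genes at that floor. F2r, the thrombin receptor gene whose product acts with EPCR, stood at 99.3 CPM in the library labelled KO and 69.1 CPM in the WT library. Ptpn11, which encodes a phosphatase that acts below Kit, stood at 51.6 and 69.2 CPM. The ligand genes Kitl, Cd70 and Proc were at or below 0.249 CPM in both libraries. Of 24 other antigens used to gate progenitors 20 reached 5 CPM, with a median of 0.42. There 13 were higher, 5 of these past 1.5-fold, and 7 were lower, 1 of these past 1.5-fold. Of all genes at that floor 2.96% passed 1.5-fold upwards and 3.85% downwards. The lower gene past 1.5-fold was Alcam, at 6.56 CPM in the library labelled KO and 11.9 CPM in the WT library. Cd9 was also lower, at 189 and 269 CPM. Among the higher ones, Fcgr2b, an inhibitory IgG receptor gene, stood at 27.6 CPM in the library labelled KO and 6.68 CPM in the WT library, and Fcgr3, an activating IgG receptor gene, at 21.2 and 12.4 CPM. Cd55, which encodes a regulator of complement, stood at 39.9 and 20.6 CPM, and Cd24a, a GPI-anchored antigen gene of maturing cells, at 124 and 85.3 CPM.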

How the data were processed

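The deposited UMI counts per gene and barcode of 2 libraries were used as they stand. Per the submitters' processing notes, the authors made these counts with Cell Ranger 2.1.1 on mm10. Version 3.1.0 of the software is named in the file headers instead. About 10000 sorted cells entered a 3′ version 2 kit, per the labels' protocols. Barcodes with at least 500 genes and at most 10% mitochondrial UMIs were kept, which left out 629 of 11398 barcodes in the library labelled KO and 497 of 9969 in the WT library. Doublets were not removed, and leaving out the 5% of cells with most UMIs was an alternative.

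UMIs were summed over cells and scaled to the library total (CPM). Sums have exact Poisson, ratios exact conditional binomial and shares exact Clopper-Pearson intervals at 95%, for counting error only. With 1 library per genotype no test could be made. Shares and pairs were taken after random thinning of cells to 3000 UMIs, drawn without replacement, leaving out 91 shallower cells in the library labelled KO and 155 in the WT library. A count of 0 was read as up to 3 counts. Male cells had a UMI of 1 of 4 Y-linked genes and no Xist UMI, and female cells at least 2 Xist UMIs and none of those. Clusters came from counts scaled to 10000 per cell and log-transformed, 2000 variable genes, 30 principal components, 20 neighbours and Leiden resolution 0.8, and cluster ratios were counted from 20 UMIs over both libraries. Ribosomal, mitochondrial and sex-linked genes were kept out of the clustering.

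The members, gene lists, markers and alternatives were chosen with earlier results of these data known. Named besides all members are the 3 genes most like each member over clusters, among genes at 20 CPM or more, up to 4 genes of each list at 20 CPM or more with the largest ratios, and Runx1. Ly9, Cd9, Alcam, the ligand genes and the stem-like marker genes were named after their values were seen. A few genes within that rule are left out of the text. The ratio step was tested on simulated sums of 5706 genes for the library labelled KO over WT: 100 of 100 genes changed 3-fold passed 1.5-fold, 0 of 5506 unchanged genes did, and 192 of 200 intervals held the true ratio. The simulated libraries differed by counting error and the set changes alone. The simulation therefore checks the calculation and says nothing about variation between libraries or animals. Alternatives covered scaling (TMM, edgeR 4.0.16), cell filters, sex, shared barcodes, thinning depth and clusters. The software was scanpy 1.11.5 with leidenalg 0.10.2, pandas 2.3.3, scipy 1.17.1 and numpy 2.4.6 under Python 3.11.15.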

Additional observations from a re-analysis of the deposited data

Results flagged for a closer look

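For 6 of the 9 genes, the ratio of the library labelled KO over the WT library had a counting interval wholly above 1 in at least 1 cluster and wholly below 1 in at least 1 other. Only clusters that held 50 or more cells of both libraries were compared, 12 in number. The difference between clusters was not tested, and counting error is the sole error behind each value.

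Kit had a ratio of 1.08 in cluster 2 and 0.693 in the erythroid-like cluster 9. Slamf1 had ratios of 3.12 in cluster 2 and 0.591 in cluster 5, where it stood at 13.04 CPM in the library labelled KO and 22.1 CPM in the WT library. Cd48 had ratios of 19.1 in the stem-like cluster 0 and 0.893 in the monocyte- and dendritic-like cluster 10. Esam had ratios of 2.18 in cluster 2 and 0.429 in cluster 10, on 9 UMIs in the library labelled KO and 19 in the WT library there. Cd27 had ratios of 1.07 in cluster 0 and 0.378 in cluster 9. Ptprc had ratios of 1.33 in cluster 2 and 0.567 in cluster 9. By direction alone, without regard to the interval, Procr was higher in 4 and lower in 5 of the 9 clusters with enough UMIs, and Ly6a and Cd34 were higher in the library labelled KO in all 12 clusters.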

How the results depend on the processing

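No paired analysis was possible because there was 1 library per genotype and no replicate numbers. Of the CPM ratios recomputed under alternatives 35 stayed within the counting interval, 34 moved beyond it in the same direction and 3 turned: Kit to 1.002 with TMM scaling and to 1.01 under the stricter cell filter, and Procr to 1.51 under that filter. Of the ratios of shares 42 stayed, 10 moved and 2 turned, both under that filter, Procr to 1.64 and Cd27 to 1.02. Under it 6 members, not 3, were at least 1.5-fold higher, with Ly6a (2.11), Procr and Esam (1.71) added, and its stem-like ratio of Cd48 was 9.53, against 29.5 in cells with a Procr UMI, both added after the data were seen. The Cd48 ratio over all cells ran from 2.31 to 3.03. Of the pair values 339 stayed, 86 moved and 7 turned: within clusters Cd34 with Esam to 0.975 in the library labelled KO, and in the WT library Kit with Procr to 0.964, Ly6a with Cd34 to 0.930, Ly6a with Ptprc to 0.978 and Cd34 with Procr to 0.939; in male cells Procr with Ptprc to 0.976 in the library labelled KO; under the stricter filter Slamf1 with Cd34 to 1.02 in the WT library. Pairs below 1 numbered 11 among male cells and 12 within clusters in the library labelled KO, and 19 within clusters in the WT library. Ly6a with Cd48 was at 0.947 in male cells and 0.974 within clusters in the library labelled KO, and at 0.465 with 2000 UMIs per cell, 0.797 under the stricter filter and 0.629 within clusters in the WT library. Cd48 with Procr in the WT library was at 0.927 under the stricter filter and 0.809 within clusters. The causes were not tested. Depth limits Slamf1 and Procr, seen in under 10% of thinned cells.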
